A study of Mus musculus with 4 samples.

Results

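Read counts of 37 genes of glycolysis, pyruvate handling and the pentose phosphate pathway were examined in cells labelled MIN6. MIN6 is an insulinoma cell line from mouse that is used to study pancreatic beta cells. The genes were taken by symbol from a fixed list of enzymes and transporters of these pathways, a rule that uses no measured value, although earlier results of these data were known when the list was made, and all 37 have a row among its 23473 gene rows. The TLX group comprised 2 libraries labelled TLX overexpression, from cells that stably overexpress the orphan nuclear receptor TLX (gene Nr2e1), and the control group 2 libraries labelled as wild-type control. The culture medium of both groups held 25 mM glucose and 15% fetal serum. The labels do not give the vector or promoter of the overexpression, whether the TLX cells are a clone or a pool, or whether the control cells carry an empty vector. They do not say either whether the libraries of a group came from separate cultures, so p-values measure the spread between these libraries, which may be technical.

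Glycolysis splits glucose into pyruvate in the cytosol. Hexokinase traps glucose as glucose 6-phosphate, phosphofructokinase commits it to the pathway, and the enzymes from aldolase to enolase carry the carbon towards pyruvate. Pyruvate is then reduced to lactate by lactate dehydrogenase and exported by monocarboxylate transporters, or enters the mitochondrial pyruvate dehydrogenase complex, which dedicated kinases switch off and phosphatases switch on. Glucose 6-phosphate can leave instead for the pentose phosphate pathway, whose oxidative branch makes NADPH and whose non-oxidative branch exchanges sugar phosphates. Beta cells couple this flux to insulin release, normally with little lactate dehydrogenase A (Ldha) or monocarboxylate transporter 1 (Slc16a1).

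The gene rows held 8490145 and 8136185 counts in TLX replicates 1 and 2, against 8435976 and 9788646 in control replicates 1 and 2. Nr2e1 had 338 and 281 counts in the TLX libraries, against 8 and 10 in control. Of 12 defining beta cell markers 7 had 0 counts in every library. The summed level of the list was 20.8 and 21.7 CPM (counts scaled to library size) in TLX, against 20.7 and 18.4 CPM in control. Ins1, Ins2, Pdx1 and Mafa were counted in every library. The highest was Ins1, with 98 and 70 counts in TLX against 78 and 86 in control. The 10 mesenchymal and fibroblast markers summed to 8575 and 8239 CPM in TLX, against 7955 and 7552 CPM in control, with Lum at 0 counts in every library and Dcn, Thy1 and Acta2 below 0.4 CPM in each. So the labelled beta cell type is not borne out by the levels of its defining transcripts in either group. The sum of the mesenchymal list was higher in both TLX libraries, but its genes did not move one way: of 6 tested 2 rose (Col1a2 and Sparc), 1 fell (Fn1) and 3 did not pass in edgeR. Col1a2 was the largest part of the sum, with 3880 and 3831 CPM in TLX against 3287 and 3081 CPM in control, and Fn1 had 565 and 606 CPM in TLX against 1018 and 969 CPM in control. Their part in the results below was not tested. In bulk RNA, fewer cells of a type and less RNA per cell cannot be told apart.

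Together the 37 genes took 1.37% and 1.24% of gene row counts in the TLX libraries, against 1.31% and 1.21% in control. Gene row counts include Rn45s, at 12.2% and 16.7% in TLX against 14.2% and 14.3% in control, so these shares also depend on it. The summed level of the 37 genes after TMM scaling was 13091 ± 539 CPM in TLX and 12531 ± 919 CPM in control (SD, n = 2 each). This difference is within the spread of the control libraries. Of the 37 genes 32 had enough counts to be tested. Hk3 and Ldhb had 0 counts in all 4 libraries, so levels under 0.302 to 0.378 CPM, the value of 3 counts in a library, could not be seen (counting error only). Aldoc, Pdk2 and Pdk4 had at most 7 counts in any library.

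Of the 32 tested genes 5 rose with TLX (Hk1, Pfkl, Pdk1, G6pdx and Pgd), 2 fell (Hk2 and Eno2) and 25 did not pass (edgeR's quasi-likelihood test, Benjamini-Hochberg adjusted p under 0.05 over 11024 genes). That is 21.9% of the tested members, beside 16.8% of all genes tested. The share that rose in all genes was 7.79% and the share that fell 9.04%. In 19 of the 32 members (59.4%) the TLX libraries did not overlap the control libraries, beside 57.1% of all genes, so the list as a whole lies near this background. The median log2 fold change of the members was 0.07, with 22 of 32 above 0, beside 0.00057 for all genes with 5522 of 11024 above 0. Without control replicate 1 the members' median was 0.15, and without control replicate 2 it was -0.0028. The calls that held whichever library was left out were those of Hk1, Eno2 and Pgd.

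**Figure D1:**
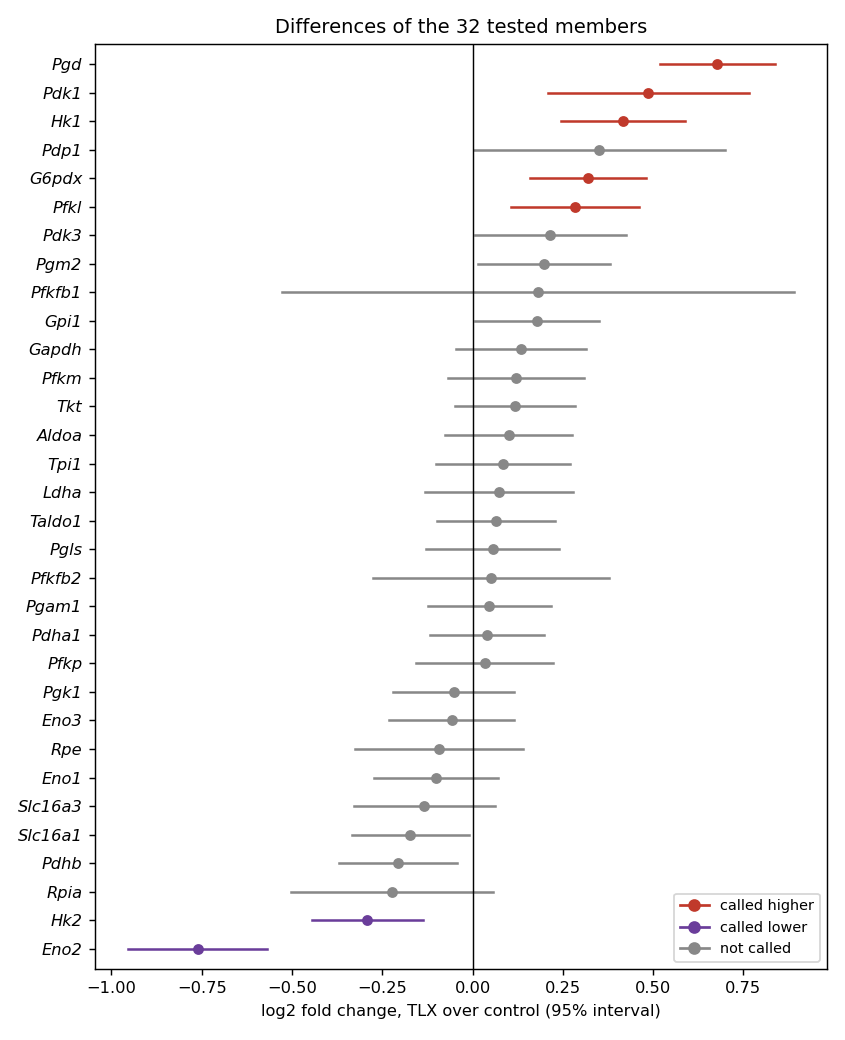
Log2 fold change of TLX over control for each of the 32 tested genes, from edgeR, with its 95% interval, ordered by value; red marks genes called higher, purple genes called lower and grey genes not called. Most intervals cover or nearly reach 0, while Pgd at 0.68 and Eno2 at -0.76 stand at the ends.

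The abundant enzymes shared an order between replicates as well. All 8 members averaging at least 500 CPM (Gpi1, Aldoa, Tpi1, Gapdh, Pgk1, Pgam1, Eno1 and Ldha) were higher in replicate 1 than in replicate 2 in both the TLX and the control group. Among all 240 genes at that level 67.5% showed this order, against 28.5% of all genes tested without a 0. The median difference of the 8 members between replicates 1 and 2 was 0.10 on the log2 scale in TLX and 0.15 in control. For comparison, the log2 fold changes of these genes between groups lay between -0.10 and 0.18. The part of this order in the results was not tested.

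**Figure D2:**
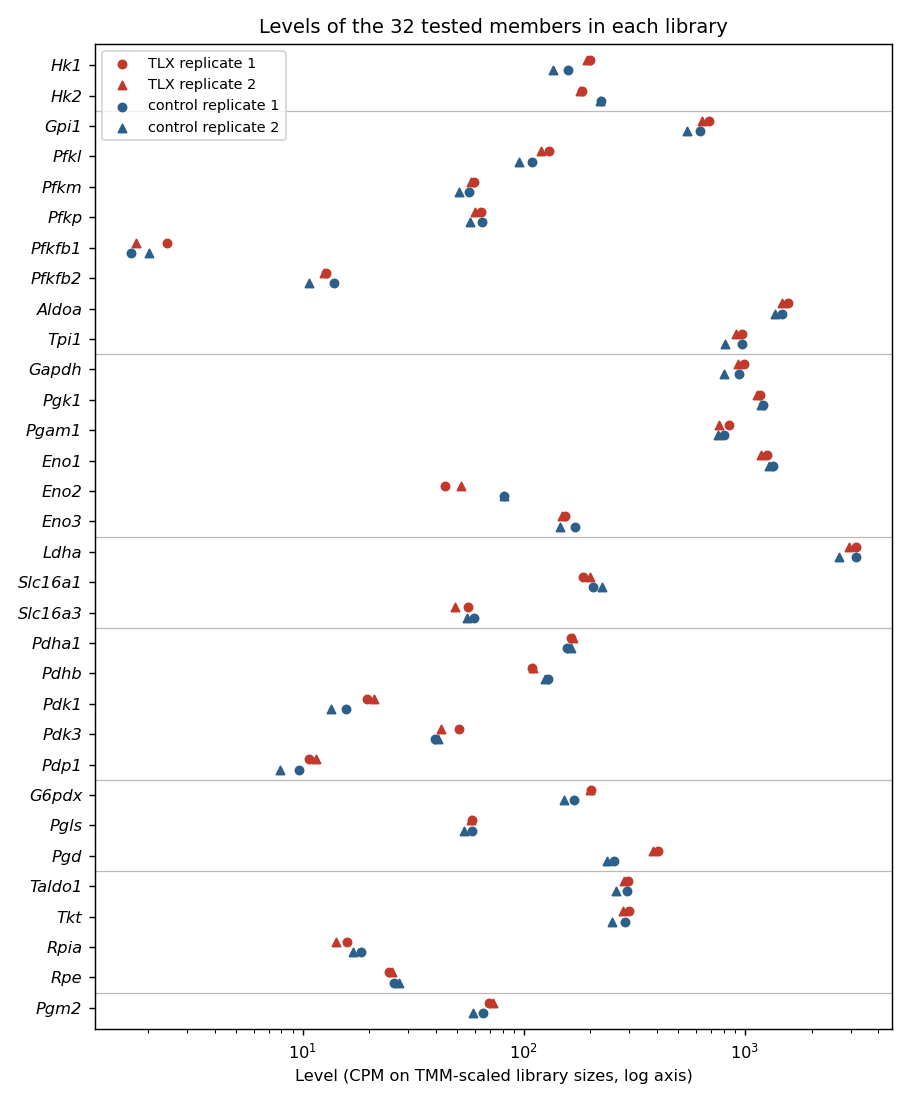
Level of each of the 32 tested genes in CPM (log axis) in every library, grouped by pathway step from hexokinases at the top to Pgm2 at the bottom. Red is TLX, blue is control, circles are replicate 1 and triangles replicate 2. The red and blue symbols of Pgd, Hk1, Hk2 and Eno2 are apart, and those of the abundant enzymes lie within or close to each other's range.

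The 2 hexokinases that were detected moved in opposite directions. Hk1, the hexokinase of most tissues, stood at 199 and 192 CPM in the TLX libraries, against 159 and 135 CPM in control. Both TLX libraries were above both control libraries, a 1.33-fold rise (log2 fold change 0.42, SE 0.08, 95% interval 0.25 to 0.59, edgeR adjusted p = 0.00102). Hk2, the hexokinase of muscle, fat and many tumours and a known HIF and insulin target, stood at 183 and 179 CPM in TLX, against 223 and 221 CPM in control. It fell by 0.29 on the log2 scale (SE 0.07, edgeR adjusted p = 0.00834), with groups that did not overlap. Its call was lost without TLX replicate 1 or 2 (adjusted p of 0.119 and 0.178; 0.00215 to 0.178 over the alternatives), though the log2 fold change stayed between -0.31 and -0.28.

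The hexokinase sum differed by less than the spread of the control libraries, at 377 ± 8 CPM in TLX and 369 ± 18 CPM in control (SD, n = 2 each). Per kilobase of the table's feature length, Hk1 made up 57.1% and 56.7% of the hexokinase signal in the TLX libraries, against 46.5% and 42.8% in control. Hk1 was thus the larger of the pair in TLX and Hk2 in control. With 2 libraries against 2, an exact two-sided permutation test cannot give a p below 0.333, so shares are given as values.

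**Figure D3:**
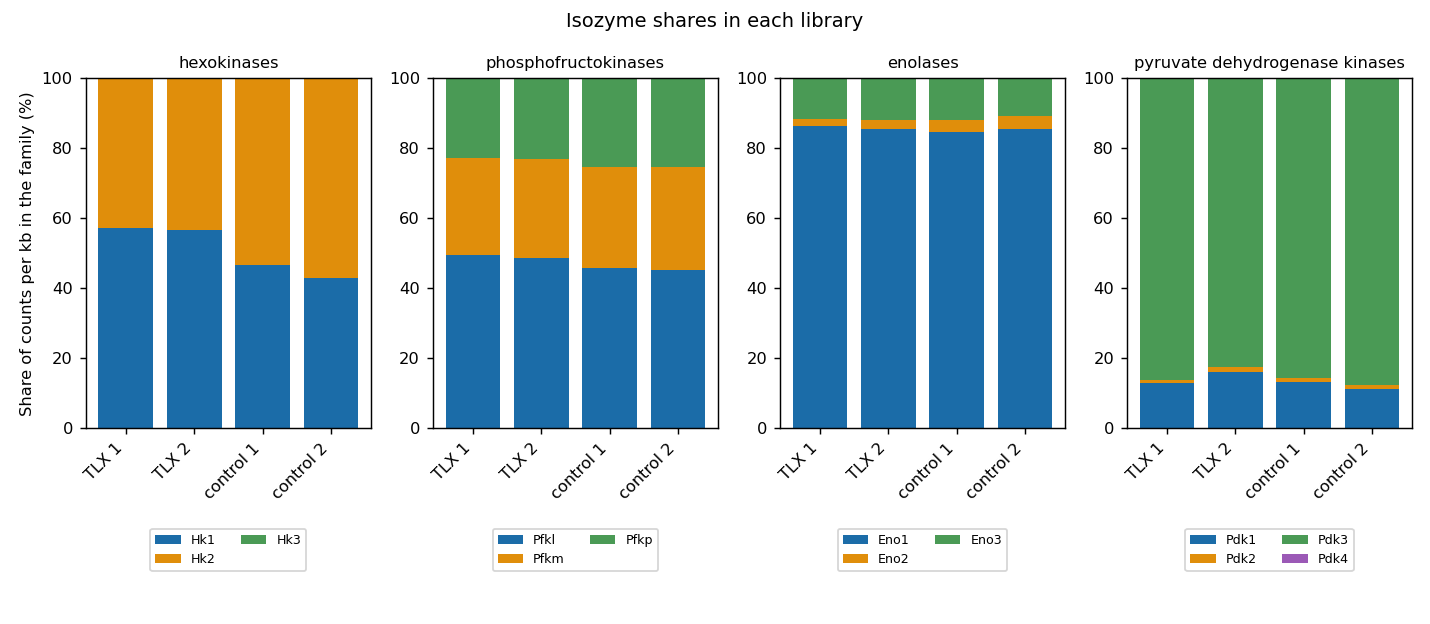
Share of each isozyme in its family in every library, in percent of counts per kilobase, for hexokinases, phosphofructokinases, enolases and pyruvate dehydrogenase kinases; the TLX libraries are left of the control libraries. Hk1 takes 57.1% and 56.7% in TLX against 46.5% and 42.8% in control, while Eno1 keeps 84.6% to 86.3% of its family in the 4 libraries.

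The bases before the RefSeq start sites of the hexokinase genes are shown because the pair moved apart. Each run is the 250 bases before a start (RefSeq, GRCm38.p6, minus strand, 5′ to 3′); the reads were mapped to mm9, so these coordinates are those of the sequence table. Capitals mark matches on either strand to AAGTCA (the core site known for TLX), CACGTG (E-box), ACGTG (core of the hypoxia response element, contained in the E-box) or TGACNNNGC (core of the antioxidant response element). Hk1 has a pair of starts, at chr10:62379909-62380158 and chr10:62340422-62340671, and Hk2 has its start after chr6:82774455-82774704.
Hk1 first start: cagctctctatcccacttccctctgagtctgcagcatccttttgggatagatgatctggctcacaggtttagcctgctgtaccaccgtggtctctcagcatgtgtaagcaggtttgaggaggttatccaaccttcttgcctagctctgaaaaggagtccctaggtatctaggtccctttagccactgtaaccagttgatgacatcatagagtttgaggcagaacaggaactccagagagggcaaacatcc
Hk1 second start: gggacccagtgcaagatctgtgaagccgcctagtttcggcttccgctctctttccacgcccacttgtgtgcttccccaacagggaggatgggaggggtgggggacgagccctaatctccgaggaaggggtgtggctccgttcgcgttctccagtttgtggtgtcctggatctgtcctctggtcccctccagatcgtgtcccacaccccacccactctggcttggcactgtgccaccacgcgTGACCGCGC
Hk2: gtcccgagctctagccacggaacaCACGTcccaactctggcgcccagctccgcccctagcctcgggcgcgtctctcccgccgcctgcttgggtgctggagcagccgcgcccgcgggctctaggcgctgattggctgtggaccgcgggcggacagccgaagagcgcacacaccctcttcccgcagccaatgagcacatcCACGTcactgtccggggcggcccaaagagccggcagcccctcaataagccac
Hk2 holds 2 matches to ACGTG, the nearer ending 47 bases before the start, and the second Hk1 start holds 1 match to TGACNNNGC next to the start. Of 32851 promoter windows of this length 16.6% hold ACGTG, 10.2% TGACNNNGC, 13.1% AAGTCA and 6.02% CACGTG, so a match is a description of the letters and no sign of binding.

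In upper glycolysis 1 of 8 tested genes rose, none fell and 7 did not pass, beside 16.8% of all genes called in either direction. All 8 had a log2 fold change above 0 in the fit of all 4 libraries (Pfkp, Pfkfb1, Pfkfb2 and Tpi1 turned below 0 when certain libraries were left out). The gene that rose was Pfkl, the liver-type phosphofructokinase, with 129 and 119 CPM in TLX against 109 and 95.3 CPM in control. Its groups did not overlap, and the rise was 1.22-fold (95% interval 1.08 to 1.38; edgeR adjusted p = 0.0248). The call was lost in DESeq2 (adjusted p = 0.11) and without control replicate 2, TLX replicate 1 or TLX replicate 2 (0.13, 0.32 and 0.071; 0.000305 to 0.32 over the alternatives).

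The other phosphofructokinase genes did not pass. Pfkm, the muscle type, had 59.2 and 57.5 CPM in TLX against 56.7 and 50.9 CPM in control, with a fold change of 1.09 (95% interval 0.953 to 1.24). Pfkp, the platelet type, had 63.8 and 60.4 CPM in TLX against 64.7 and 56.9 CPM in control, groups that overlapped. Pfkp shares 748 exon bases with Pitrm1 on the opposite strand, and since the use of strand in counting is not given, reads of both genes cannot be told apart there. Per kilobase, Pfkl made up 49.5% and 48.5% of the phosphofructokinase signal in TLX, against 45.8% and 45.3% in control.

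Gpi1, which turns glucose 6-phosphate into fructose 6-phosphate, had 685 and 641 CPM in TLX against 626 and 547 CPM in control. The groups did not overlap, but the 1.13-fold difference did not pass (edgeR adjusted p = 0.151; 0.0178 without control replicate 1, and 0.0178 to 0.624 over the alternatives). Aldoa, the aldolase that splits fructose 1,6-bisphosphate, had 1558 and 1466 CPM in TLX against 1463 and 1360 CPM in control (fold 1.07, 95% interval 0.948 to 1.21). Triose phosphate isomerase (Tpi1) had 970 and 914 CPM in TLX against 970 and 808 CPM in control, and its groups overlapped. Aldoc, the brain aldolase, had 1 and 0 counts in TLX and 0 and 4 in control, which leaves Aldoa as nearly the whole aldolase signal.

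Pfkfb1 and Pfkfb2 encode bifunctional enzymes that set the level of fructose 2,6-bisphosphate, the activator of phosphofructokinase. Pfkfb2 had 12.7 and 12.5 CPM in TLX against 13.9 and 10.7 CPM in control, and Pfkfb1 had 2.43 and 1.76 CPM in TLX against 1.68 and 2.01 CPM in control. Both overlapped between groups, and at this depth the 95% interval of the Pfkfb1 fold change runs from 0.694 to 1.85. Pfkfb2 shares 1241 exon bases with Gm29427 on the same strand and 154 with Yod1 on the opposite strand.

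In lower glycolysis 1 of 6 tested genes fell, none rose and 5 did not pass, beside 16.8% of all genes called in either direction. Eno2, the enolase of neurons and endocrine cells, had 44.1 and 51.8 CPM in TLX against 80.9 and 81.5 CPM in control. The groups were well apart, with a fold change of 0.590 (95% interval 0.516 to 0.674; log2 fold change -0.76, SE 0.09, edgeR adjusted p = 3.38e-06). The call held in each alternative, with a log2 fold change of -0.88 to -0.65.

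The other enolase genes did not follow. Eno1, the enolase of most tissues, had 1264 and 1182 CPM in TLX against 1337 and 1285 CPM in control (fold 0.932, 95% interval 0.828 to 1.05, edgeR adjusted p = 0.452). Eno3, the muscle enolase, had 154 and 149 CPM in TLX against 170 and 145 CPM in control, and its groups overlapped. Per kilobase, Eno2 was a small part of the family, 2.04% and 2.53% in TLX against 3.46% and 3.66% in control, while Eno3 made up 11.6% and 11.9% in TLX against 11.9% and 10.7% in control. The enolase signal as a whole was therefore set by Eno1 in both groups. The 250 bases before the RefSeq start of Eno2 (chr6:124769674-124769923, GRCm38.p6, minus strand), shown because Eno2 had the largest fall of the list, hold none of the 4 letter patterns.
Eno2: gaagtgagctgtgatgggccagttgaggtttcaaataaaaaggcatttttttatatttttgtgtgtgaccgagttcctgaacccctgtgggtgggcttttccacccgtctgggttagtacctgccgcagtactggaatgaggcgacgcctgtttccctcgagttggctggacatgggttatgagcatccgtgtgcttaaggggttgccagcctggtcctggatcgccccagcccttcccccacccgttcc

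The remaining lower glycolysis genes were abundant and did not pass. Gapdh, the glyceraldehyde 3-phosphate dehydrogenase often used to normalise expression, had 992 and 928 CPM in TLX against 943 and 806 CPM in control (fold 1.10, 95% interval 0.969 to 1.24). Pgk1, the first ATP-making step, had 1165 and 1134 CPM in TLX against 1208 and 1175 CPM in control, and its fold change was 0.965 (0.858 to 1.08). Phosphoglycerate mutase 1 (Pgam1) had 846 and 761 CPM in TLX against 804 and 752 CPM in control. The groups of Gapdh and Pgam1 overlapped, and the TLX libraries of Pgk1 were both slightly below control. Gapdh has 71 other genes, 67 of them pseudogenes, with a transcript at least 95% identical over at least 50% of its length in GENCODE. Eno1 has 3 such genes, Pgk1 and Ldha 2 each, and Gpi1, Ldhb and Pdhb 1 each. Part of the counts of all these members may come from or be lost to such copies. None of the 7 called members has such a copy, and none shares exon bases with another gene.

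With all 4 libraries and no replicate block, no gene of lactate production or export passed in edgeR, DESeq2 or limma-voom. Of the 3 tested 1 (Slc16a1) had an unadjusted edgeR p under 0.05, beside 3321 of all 11024 genes tested. Ldha, which reduces pyruvate to lactate, was the most abundant member at 3183 and 2943 CPM in TLX against 3165 and 2658 CPM in control. Its control libraries differed more from each other than the group means did, and the fold change was 1.05 (95% interval 0.913 to 1.21, edgeR adjusted p = 0.673). Ldhb, the isoform that favours lactate oxidation, was at 0 counts in all 4 libraries. Per kilobase, Ldha stood above 99.7% of all tested genes.

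The monocarboxylate transporters export lactate together with a proton. Slc16a1 (MCT1) had 185 and 198 CPM in TLX against 206 and 226 CPM in control, groups that did not overlap. Its fold change of 0.887 did not pass (95% interval 0.793 to 0.993; edgeR adjusted p = 0.14; 0.0203 without control replicate 1, and 0.0203 to 0.642 over the alternatives). Slc16a3 (MCT4), the exporter of highly glycolytic cells, had 55.8 and 48.8 CPM in TLX against 59.7 and 55.3 CPM in control, with overlap. The chaperone of these transporters, Bsg, taken from the list of related genes, had a fold change of 0.951 (0.848 to 1.06).

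Of 5 tested genes around pyruvate dehydrogenase 1 rose, none fell and 4 did not pass, beside 16.8% of all genes called in either direction. Pdk1, a kinase that inactivates the complex and a known HIF target, had 19.5 and 21.0 CPM in TLX against 15.7 and 13.4 CPM in control. The groups did not overlap, and the log2 fold change was 0.49 (SE 0.13, 95% interval 0.21 to 0.76, edgeR adjusted p = 0.014). The call was lost in DESeq2 (adjusted p = 0.161) and without control replicate 2 or TLX replicate 2 (0.0992 and 0.0819; 0.00243 to 0.161 over the alternatives).

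The bases before the second RefSeq start of Pdk1 are shown because Pdk1 is the called gene with a match to AAGTCA (chr2:71874654-71874903, GRCm38.p6, plus strand).
Pdk1 second start: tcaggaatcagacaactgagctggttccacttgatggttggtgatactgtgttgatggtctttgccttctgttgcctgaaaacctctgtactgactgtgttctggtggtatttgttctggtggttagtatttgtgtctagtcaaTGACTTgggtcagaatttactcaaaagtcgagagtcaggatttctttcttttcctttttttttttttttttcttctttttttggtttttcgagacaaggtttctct
The match lies on the reverse strand of the run, 100 bases before the start. The window of the first Pdk1 start and those of the other 6 called genes hold no AAGTCA, and 4 genes that were not called (Gpi1, Pfkfb1, Pfkfb2 and Tkt) hold 1 match each.

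Pdk3 was the leading kinase of this family per kilobase, with 86.1% and 82.5% of its signal in TLX against 85.7% and 87.6% in control. Pdk1 made up 12.8% and 16.0% in TLX against 13.2% and 11.2% in control, so its share overlapped between groups. Pdk3 had 50.9 and 42.4 CPM in TLX against 39.6 and 40.8 CPM in control and did not pass (edgeR adjusted p = 0.154). Pdk2 had 5 and 7 counts in TLX and 5 and 6 in control, and Pdk4, the starvation-induced kinase, 2 and 0 counts in TLX and 0 and 1 in control.

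Pdp1, the phosphatase that reactivates the complex, had 10.6 and 11.5 CPM in TLX against 9.57 and 7.85 CPM in control. The groups did not overlap, but its log2 fold change of 0.35 did not pass (95% interval 0.0035 to 0.70, edgeR adjusted p = 0.162). Of the catalytic subunits, Pdha1 had 163 and 167 CPM in TLX against 157 and 164 CPM in control, and shares 603 exon bases with Map3k15 on the opposite strand. Pdhb had 109 and 110 CPM in TLX against 128 and 124 CPM in control. The Pdhb groups did not overlap, yet the gene did not pass (fold 0.867, edgeR adjusted p = 0.0745), and it passed without control replicate 2 (0.0425) and among genes of at least 10 CPM (0.0499; 0.0425 to 0.399 over the alternatives).

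**Figure D4:**
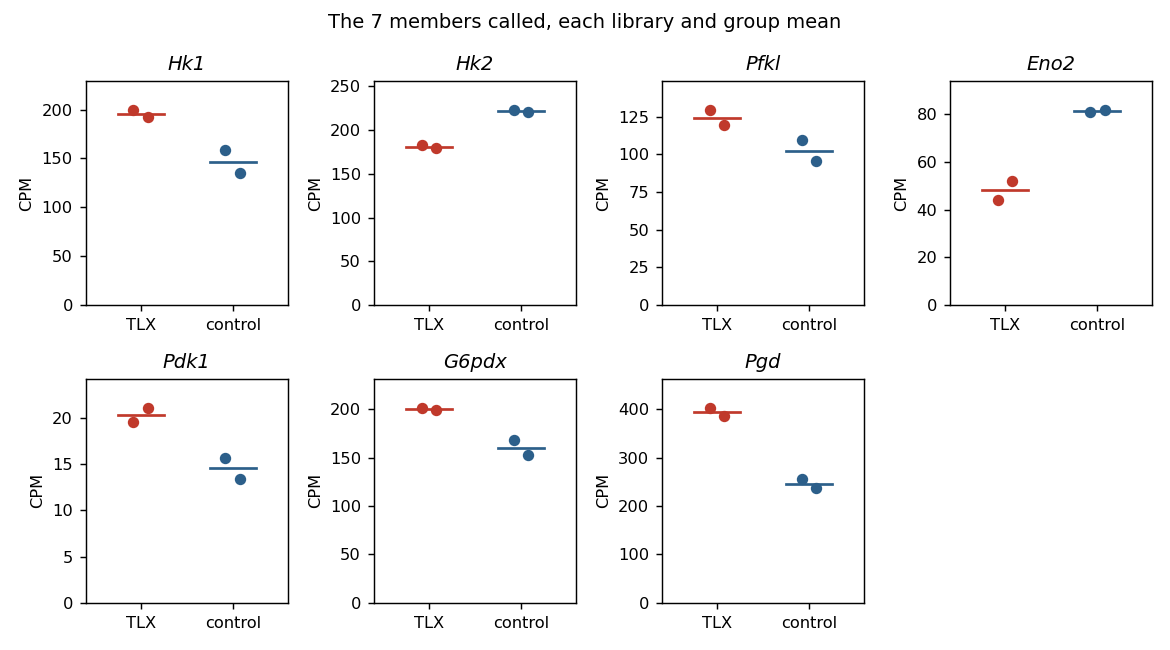
Level in CPM of the 7 genes called, with a point for each library and a line for the group mean, TLX at left and control at right; each vertical axis starts at 0. In all 7 panels the TLX points lie on the same side of both control points, by the widest relative gap in Pgd and Eno2.

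The oxidative branch of the pentose phosphate pathway held the largest rise of the list. Of its 3 genes 2 rose and the other did not pass, while 7.79% of all genes tested rose. A count over so few genes is a description only. Pgd, the 6-phosphogluconate dehydrogenase that makes the second NADPH, had 402 and 385 CPM in TLX against 256 and 237 CPM in control. The groups were far apart, with a log2 fold change of 0.68 (SE 0.08, 95% interval 0.52 to 0.84, edgeR adjusted p = 1.25e-06) that held in each alternative at 0.62 to 0.73.

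G6pdx, the X-linked glucose 6-phosphate dehydrogenase that opens the branch, had 201 and 199 CPM in TLX against 168 and 152 CPM in control. The groups did not overlap and the log2 fold change was 0.32 (SE 0.08, 95% interval 0.16 to 0.48, edgeR adjusted p = 0.00585). The call was lost without TLX replicate 1 or 2 (adjusted p of 0.104 and 0.0776; 5.76e-05 to 0.104 over the alternatives). Pgls, the lactonase between the dehydrogenases, had 58.5 and 57.9 CPM in TLX against 58.3 and 53.8 CPM in control (fold 1.04, 95% interval 0.914 to 1.18). The summed level of the branch was 652 ± 14 CPM in TLX and 463 ± 28 CPM in control (SD, n = 2 each).

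The bases before the starts of both dehydrogenase genes are shown because the genes rose together (RefSeq, GRCm38.p6, minus strand; chr4:149166706-149166955 for the upstream Pgd start and chrX:74428881-74429130 for G6pdx). Capitals mark the same 4 letter patterns.
Pgd: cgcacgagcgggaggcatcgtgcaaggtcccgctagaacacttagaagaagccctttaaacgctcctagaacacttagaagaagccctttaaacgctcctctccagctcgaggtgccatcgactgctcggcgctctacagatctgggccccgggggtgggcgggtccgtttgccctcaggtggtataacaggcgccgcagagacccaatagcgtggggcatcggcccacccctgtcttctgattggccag
G6pdx: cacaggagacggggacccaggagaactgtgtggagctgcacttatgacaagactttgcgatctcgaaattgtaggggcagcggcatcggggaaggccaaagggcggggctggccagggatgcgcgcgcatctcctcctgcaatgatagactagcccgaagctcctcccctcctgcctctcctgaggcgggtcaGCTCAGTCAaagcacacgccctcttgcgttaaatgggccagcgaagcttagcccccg
G6pdx holds 1 match to TGACNNNGC, on the reverse strand of the run and 48 bases before the start, and this Pgd window holds no match to any of the 4. No match says only that these letters are not in this window.

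In the non-oxidative branch none of 4 genes rose or fell in edgeR, DESeq2 or limma-voom. None had an unadjusted edgeR p under 0.05, beside 3321 of all 11024 genes tested. Transaldolase (Taldo1) had 296 and 282 CPM in TLX against 293 and 261 CPM in control, and transketolase (Tkt) 299 and 281 CPM in TLX against 285 and 250 CPM in control. Both overlapped between groups. The ribose 5-phosphate isomerase gene Rpia had 15.8 and 14.1 CPM in TLX against 18.3 and 16.8 CPM in control, and the epimerase gene Rpe 24.6 and 25.3 CPM in TLX against 25.8 and 27.4 CPM in control. In both the TLX libraries were below the control libraries, with fold changes of 0.857 (95% interval 0.706 to 1.04) and 0.937 (0.797 to 1.10). Rpe shares 443 exon bases with Kansl1l on the opposite strand. The branch summed to 619 ± 23 CPM in TLX and 589 ± 47 CPM in control (SD, n = 2 each). Whether the branches differ from each other was not tested. Pgm2, a mutase gene of the list, had 69.2 and 72.5 CPM in TLX against 65.0 and 58.7 CPM in control, without overlap. The annotation was not stated, so the sugar phosphate that the enzyme of this symbol acts on cannot be told. Pgm2 did not pass (edgeR adjusted p = 0.132). Its log2 fold change of 0.20 stayed between 0.12 and 0.27 over the alternatives.

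Per kilobase, the most abundant members stood far above the hexokinases, the phosphofructokinases and Pdk1 in both groups. Averaged over the 4 libraries, Ldha led with 1548 CPM per kb, followed by Aldoa with 802, Gapdh with 745, Eno1 with 713, Pgk1 with 650, Tpi1 with 572 and Pgam1 with 432. In TLX Gapdh averaged 779 ± 37 CPM per kb and Eno1 688 ± 33 CPM per kb (SD, n = 2 each). In control Gapdh averaged 710 ± 78 CPM per kb and Eno1 738 ± 21 CPM per kb, so their order there lies within the spread. Taldo1 and Gpi1, at 222 and 219 CPM per kb, did not differ beyond their spread. Far lower were Hk1 at 38.0, Hk2 at 36.6, Pfkl at 30.5 and Pdk1 at 3.39 CPM per kb. Low levels did not hold for every regulated step, as Pkm, the pyruvate kinase outside the list, stood at 1659 CPM per kb. Of the abundant group down to Gpi1 none was called, and the genes called were Pgd, at 144 CPM per kb, and others at 68.9 CPM per kb (G6pdx) or less.

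Genes of the same pathways outside the list changed in a share near the background. Of 48 such rows 26 were tested, of which 1 rose, 3 fell and 22 did not pass (15.4% called). Pgam2, the muscle phosphoglycerate mutase, had 7.28 and 9.20 CPM in TLX against 3.95 and 5.33 CPM in control, a 1.75-fold rise (edgeR adjusted p = 0.0107). The call was lost in DESeq2 (adjusted p = 0.134) and without control replicate 1 or TLX replicate 2 (0.0557 and 0.115; 0.000932 to 0.134 over the alternatives that tested it).

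Of the related genes that fell, Pck2, the mitochondrial phosphoenolpyruvate carboxykinase, had 117 and 110 CPM in TLX against 155 and 153 CPM in control. Its log2 fold change of -0.43 passed (edgeR adjusted p = 0.000373) and did so in each alternative. Adpgk, which phosphorylates glucose with ADP in place of ATP, had 19.6 and 26.1 CPM in TLX against 34.2 and 35.2 CPM in control (log2 fold change -0.61, edgeR adjusted p = 0.00116; 0.0653 without TLX replicate 1, and 4.52e-06 to 0.0653 over the alternatives). Dld, the dihydrolipoamide dehydrogenase subunit that pyruvate dehydrogenase shares with other complexes, had 65.0 and 62.5 CPM in TLX against 74.9 and 85.5 CPM in control. It fell by 0.33 on the log2 scale (edgeR adjusted p = 0.0121), but not in DESeq2 (0.0795) or when control replicate 2, TLX replicate 1 or TLX replicate 2 was left out (0.0827, 0.0647 and 0.136, in a range of 0.000175 to 0.136). Pkm, the pyruvate kinase that ends glycolysis, was abundant at 4732 and 4463 CPM in TLX against 4435 and 3612 CPM in control and did not pass (fold 1.14, 95% interval 0.983 to 1.33, edgeR adjusted p = 0.226). Pfkfb3 had at most 4 counts in any library, and Pfkfb4 11.1 and 11.5 CPM in TLX against 10.7 and 11.6 CPM in control.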

How the data were processed

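RNA-seq of total RNA from 4 libraries of cells labelled MIN6 was analysed. The deposited table holds raw read counts for each feature, with no normalization, beside a feature length in bases, per the file headers. TopHat2 2.0.13 and build mm9 were used per the submitters' processing notes; the counting program, annotation and strand setting were not stated in those sources. Rows named for FANTOM3 clones (33353 of 56826) were left out. Gene rows passing filterByExpr (minimum count 10) were scaled by TMM and tested with edgeR 4.0.16 (R 4.3.3; glmQLFit and glmQLFTest, TLX over control, 2 residual degrees of freedom, Benjamini-Hochberg at 0.05 over 11024 genes). SE is the log2 fold change divided by the square root of F, and 95% intervals use 22.6 degrees of freedom. Levels are given in CPM after TMM scaling, divided by feature length where given per kb. Isozyme shares use counts per kb within a library.

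Each library counted as a sample. Scaled by gene row totals without TMM, replicate pairs had a median chi-square of 0.924 for TLX and 1.13 for control, against 0.455 for noise alone. Part of this excess can come from the scaling, and its size was not tested. Such an excess cannot show separate cultures, since separate preparations of the same culture can differ in this way too. Near-identical transcripts and shared exons came from GENCODE M21, and promoters from RefSeq (36 of 37 members matched). The tests were tried on simulated counts. Alternatives were DESeq2 1.42.0 size factors and Wald test, limma-voom (limma 3.58.1), library totals, other filters, all rows, leaving out Rn45s and Lars2, the replicate number as a block, and each library left out; ranges over alternatives leave out the block. The members and lists were chosen with earlier results of these data known. Every member could be named, and of the related genes those called, Pkm, Pfkfb3 and Pfkfb4; Bsg was added after its values were seen. A gene that the rule also covers is not reported here.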

Additional observations from a re-analysis of the deposited data

How the results depend on the processing

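Scaling by DESeq2 size factors or library totals, no filter, limma-voom, all rows, and leaving out Rn45s and Lars2 called the same 7 members, and a minimum of 10 CPM on average called these and Pdhb. DESeq2's Wald test called 3 members higher (without Pfkl and Pdk1), 0 related genes higher, and 355 genes higher and 484 lower, against 859 and 997 with edgeR. With 10 CPM as the minimum 0 related genes were called higher, as Pgam2 was not tested. Across the 4 fits that leave out a library, members called higher numbered 2 to 7 and lower 1 to 3, related genes 0 to 1 and 1 to 3, and all genes 388 to 993 and 585 to 1060. Such a fit assumes that the lone library varies like the other group.

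Of genes not called, the log2 fold change turned sign only when a library was left out. It ranged from -0.061 to 0.12 for Pfkp, -0.074 to 0.38 for Pfkfb1, -0.14 to 0.24 for Pfkfb2, -0.043 to 0.22 for Tpi1, -0.033 to 0.12 for Pgam1, -0.17 to 0.058 for Eno3, -0.048 to 0.20 for Ldha, -0.0039 to 0.11 for Pgls and -0.019 to 0.15 for Taldo1. The share of Slc16a1 in its family (TLX minus control) ranged from -2.68 to 1.73 percentage points, and that of Eno2 was -1.86 points without division by length, against -1.28 with it.

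The labels number the libraries 1 and 2 in both groups but do not say that a number marks a shared culture or day. Deviations of same-numbered libraries correlated at 0.108 over 11024 genes. With the replicate block 7 members were called higher and 4 lower, 2 related genes higher and 3 lower, and 1495 genes higher and 1487 lower, which is 27.1% of all genes tested against 16.8% without it; all 7 calls were kept, and Gpi1, Pdhb, Pgm2 and Slc16a1 were added. The cause of these changes was not tested. Pfkfb1, Aldoc, Pdk2 and Pdk4 had too few counts to show differences of the sizes measured for other members.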
